A study of Danio rerio with 11 samples.

Results

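Urocortin 3 and chgb, a peptide hormone precursor and a granin of the vesicles in which such peptides are stored, were described in sorted intraspinal serotonergic neurons (ISNs) of zebrafish. They are 2 of the 39714 gene IDs in the deposited table (ENSDARG00000087241, whose symbol in the reference of gene names is UCN3, and ENSDARG00000076500, chgb). Both were picked by ID after their values were known: urocortin 3 stood among the highest genes, and chgb was lower in all injury libraries than in any distal one. Their levels and group differences are therefore given as a description, without a test. The libraries came from the Tg(tph2:GFP) line, in which green fluorescent protein is driven by the promoter of tph2, the neuronal enzyme that starts serotonin synthesis. All fish had a spinal cord injury and were taken 6 to 8 weeks later. GFP-positive cells of the spinal segment at the injury site gave 6 libraries (injury) and those of the segments distal to it gave 5 (distal). The methods of the study state that the same fish gave both segments, so the distal cells also belong to injured animals, and no uninjured group is part of this comparison. Fish were juvenile or adult, of both sexes and aged 6 to 8 weeks, and whether this age is that at injury is not stated. The number of cells or fish behind a library is not given in the sources used here.

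Urocortin 3 belongs to the corticotropin-releasing factor (CRF) family of peptides. In mammals it acts through the type 2 CRF receptor and is known from hypothalamic neurons and from pancreatic beta cells. Such peptides are made as longer precursors, cut by prohormone convertases inside large dense-core vesicles, trimmed by carboxypeptidase E and, for many of them, amidated at the end. Granins such as chromogranin B (chgb) are acidic proteins of the same vesicles, where they aggregate with peptides and monoamines. In serotonergic neurons serotonin and peptides can be held in the same cell.

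Levels are given as deposited in FPKM, a fragment number scaled to the length of the gene and to sequencing depth. Differences are of log2(FPKM + 1), injury minus distal. The levels rest on 14215980 to 19709661 fragments per library. Libraries differed in how many genes they caught: 4530 to 16019 IDs reached 1 FPKM in the injury libraries and 8448 to 14208 in the distal ones, with the lowest numbers in injury replicates 3 (4530) and 2 (5443). Of 11 serotonergic IDs, tph2, the pet1 factor FEV and the aromatic amino acid decarboxylase DDC were above 500 FPKM in every library. The promoter of tph2 also drives the reporter used for the sort. The serotonin transporter SLC6A4 fell to 3.28 FPKM in injury replicate 2. Summed markers of other cells were highest for ependymo-radial glia, at 805 FPKM in distal replicate 2. Those of oligodendrocytes reached 752 FPKM and those of cerebrospinal fluid-contacting neurons 725 FPKM, both in injury replicate 6. Oligodendrocyte markers also reached 708 FPKM in distal replicate 1, and microglia and macrophage markers 353 FPKM in distal replicate 3. Because RNA of sorted cells was pooled, fewer cells that make a transcript and less of it per cell cannot be told apart.

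Urocortin 3 was one of the most abundant transcripts of ISNs in both places. Injury replicates 1 to 6 had 23760.3, 23248.5, 19986.5, 22640.4, 19601.9 and 20650.4 FPKM. Distal replicates 1 to 5 had 25831, 22519, 9470.1, 19608.5 and 19948 FPKM. The groups overlapped, and 10 of the 11 libraries lay close together while distal replicate 3 stood below all others. The mean was 21648 ± 1786 FPKM (SD, n = 6) in injury and 19475 ± 6124 FPKM (SD, n = 5) in distal libraries. On the log2 scale the difference was 0.22 ± 0.26 (SE from the group SDs, n = 6 and 5), smaller than its error, and it was -0.02 without distal replicate 3.

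**Figure D1:**
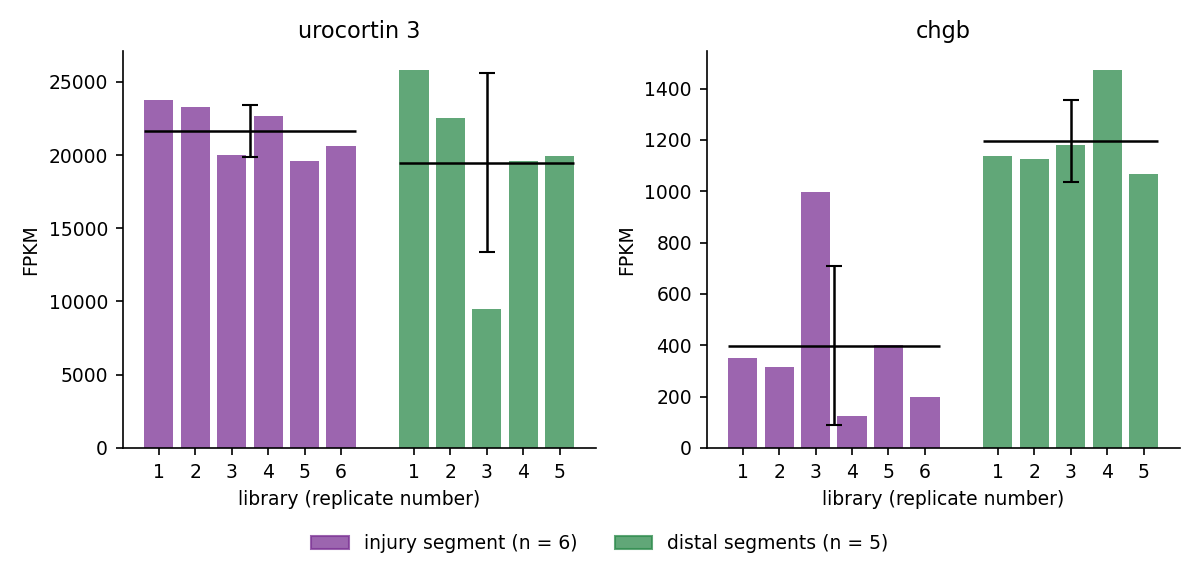
FPKM (vertical axes, linear, starting at 0) of urocortin 3 (left) and chgb (right) in each library, with 1 bar per library, purple for the injury segment and green for the distal segments. Horizontal lines are group means and error bars are SD (n = 6 and 5). Urocortin 3 is at 19601.9 FPKM or more everywhere but distal replicate 3, and chgb is at 997 FPKM or less in all injury libraries and at 1068 FPKM or more in all distal ones.

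As a share of all summed FPKM, urocortin 3 took 3.04%, 2.74%, 3.07%, 2.99%, 3.01% and 2.77% in injury replicates 1 to 6. The shares were 3.24%, 3.34%, 1.19%, 2.60% and 3.001% in distal replicates 1 to 5. Within the injury group the share thus moved by 1.12 times between its lowest and highest library. By FPKM the gene ranked 3, 4, 3, 4, 3 and 4 in the injury libraries and 4, 3, 6, 4 and 2 in the distal ones. Ordered by the mean over 11 libraries it was the fourth, after ENSDARG00000080337, which has no symbol in the reference (100698 ± 31581 FPKM, SD), and the mitochondrial MT-CO2 (33775 ± 15719 FPKM) and MT-CO3 (25925 ± 13260 FPKM). Urocortin 3 was above MT-CO3 in 5 libraries and below it in 6, so it did not differ from MT-CO3 beyond their spread. It was above MT-CO2 in 1 library and above ENSDARG00000080337 in 0. The next genes were txnb, a thioredoxin (11651 ± 5801 FPKM), MT-CO1 (10378 ± 5368 FPKM) and MT-CYB (8461 ± 4847 FPKM), and urocortin 3 was above them in 10, 11 and 10 libraries. Among the 29190 IDs with a symbol outside the mitochondrial genome it was first in 10 libraries, and second to txnb in distal replicate 3.

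FPKM divides by gene length, and the length that gives whole fragments of urocortin 3 in all libraries was 444 bases. Of 13685 IDs seen in at least 6 libraries, 2.16% were that short or shorter. Counted in fragments the gene held 123725 to 203450 in the injury libraries and 77373 to 223720 in the distal ones. That was 0.870% to 1.05% of a library's fragments at the injury, and 0.420% (distal replicate 3, 95% exact binomial interval 0.418% to 0.423%) to 1.15% in distal libraries. By fragments the gene ranked 7 to 10 at the injury and 6 to 16 in distal libraries, below its rank by FPKM in every library. Intervals cover counting error only, since copies made by amplification are not independent molecules.

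The level of urocortin 3 varied little. Its coefficient of variation (SD over mean) was 8.25% over the 6 injury libraries, the lowest of the 431 genes that were above 0 in all 11 libraries and averaged at least 200 FPKM. The median of those genes was 45.9%, and tph2 had 46.2%. Among the 9 serotonergic genes that averaged at least 10 FPKM, the coefficients at the injury ran from 21.1% (GATA3) to 118% (SLC6A4, the serotonin transporter). In the distal segments urocortin 3 was less constant, at 31.4%, and stood at position 85 of 431 from the lowest. Over all 11 libraries it had 20.5%, position 2 of 431. Without distal replicate 3 it had 13.1% in the distal group, and 9.81% over the 10 libraries left, where it was second of 431. That library was left out because urocortin 3 was lowest in it, so nothing is read from the rank without it. Counting error was far smaller, at 0.36% for the library with the fewest urocortin 3 fragments.

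**Figure D2:**
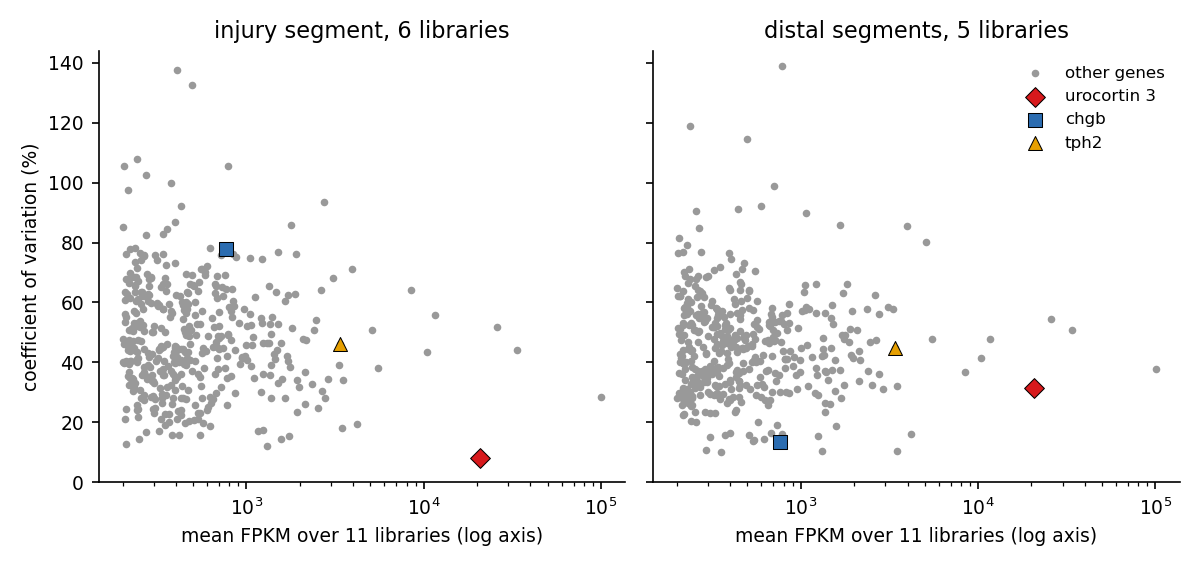
Coefficient of variation in percent (vertical axis) against mean FPKM over 11 libraries (horizontal log axis) for the 431 genes above 0 in every library that averaged at least 200 FPKM, over the 6 injury libraries (left) and the 5 distal libraries (right). Each point is a gene. Urocortin 3 lies at 8.25% at the injury and 31.4% in distal libraries, and chgb at 77.9% and 13.3%.

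The low value of distal replicate 3 came with low values of some serotonergic genes. This library had 1462 FPKM of tph2, the lowest of all 11, 1103 FPKM of FEV and 102 FPKM of the vesicular monoamine transporter SLC18A2, the lowest of all 11 in each case. It was the lowest distal library at 4 of the 9 serotonergic genes that averaged at least 10 FPKM. At the others, such as GCH1 (583 FPKM) and GATA3 (359 FPKM), it was not the lowest. How often it was the lowest over all genes was not computed. Urocortin 3 per tph2 was 6.48 there, within the 3.73 to 7.24 of the other distal libraries. The summed FPKM of 7 microglia and macrophage markers was 353 in this library, against 0.193 to 287 in the other distal libraries, and that of 9 markers of ependymo-radial glia was 62.9, against 314 to 805. The part of these values in the result was not tested. Of the 11 serotonergic IDs, all tested, 4 had a higher and 7 a lower mean at the injury, and 0 passed at a limma p under 0.05, adjusted (0% of all genes tested) or unadjusted (2.68%). Without distal replicate 3, tph2 was lower at the injury by -0.66 ± 0.27 (SE, limma unadjusted p 0.0233, adjusted p 0.848). It passed unadjusted in 1 of 20 settings, as did SLC6A4, GCH1 and LMX1B (ENSDARG00000104815), each in another setting. Urocortin 3 per tph2 was 8.49 ± 3.40 (SD, n = 6) in injury and 5.47 ± 1.54 (SD, n = 5) in distal libraries, with ranges of 3.70 to 13.0 and 3.73 to 7.24 that overlapped.

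Other genes of the CRF system were low or patchy beside urocortin 3. Of 8 listed names 7 matched an ID, and 4 of the 6 IDs besides urocortin 3 passed the filter of a mean of at least 0.1 FPKM. None of these 4 passed the limma test (lowest limma adjusted p 0.838), and all 4 had a higher mean at the injury, with a median difference of 0.36 against -0.04 over all genes tested. Of them UCN and crhr2 met the filter through 1 injury library each and could only come out higher there. Nothing is therefore read from this count or median. CRHBP, the binding protein that sequesters CRF and urocortin in mammals, had 57.9, 0, 0, 1193, 222 and 479 FPKM in the 6 injury libraries and 32.2, 0, 57.7, 42.6 and 537 FPKM in the 5 distal ones. It ranged from a listing at 0 to over 1000 FPKM within the injury group (difference 0.38 ± 1.56, SE, limma adjusted p 0.964). Singled out after their values were seen, the receptor genes differed in how regularly they were found. CRHR1, the type 1 receptor, was above 0 in all 11 libraries at 2.50 to 16.8 FPKM. The type 2 receptor crhr2 was found in injury replicate 6 alone, at 15.2 FPKM, and listed at 0 elsewhere. UCN had 3.05 FPKM in injury replicate 1 alone, and crha and CRH had means of 0.0201 and 0.0346 FPKM.

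The level of chgb was steady in distal libraries, and lower and variable at the injury. Injury replicates 1 to 6 had 352, 317, 997, 125.3, 402 and 198 FPKM. Distal replicates 1 to 5 had 1138, 1127, 1182, 1474 and 1068 FPKM. All 6 injury libraries were below the lowest distal library, by a narrow margin for injury replicate 3. Groups that do not overlap, with the injury lower, occurred at 45 of the 24178 genes tested (0.186%), and at 5 of the 2287 genes above 0 in all libraries (0.219%). Since chgb was chosen for this contrast, nothing is read from that share.

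The mean of chgb was 398 ± 310 FPKM (SD, n = 6) in injury and 1198 ± 160 FPKM (SD, n = 5) in distal libraries, 3.01-fold higher in the latter. The log2 difference was -1.88 ± 0.42 (SE from the group SDs, n = 6 and 5). The ratio of the means was 4.30 without injury replicate 3 and 2.64 without injury replicate 4. Leaving out any 1 library kept the log2 difference between -2.21 and -1.61. The coefficient of variation was 77.9% at the injury (40.9% without injury replicate 3), position 413 of 431 from the lowest. In the distal segments it was 13.3%, position 5 of 431.

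By FPKM chgb ranked 319, 376, 64, 556, 188 and 435 across injury replicates 1 to 6. The ranks of distal replicates 1 to 5 were 86, 53, 68, 61 and 65. The ranks overlapped, since injury replicate 3, at 64, stood within the distal range. Its share of summed FPKM was 0.0451%, 0.0374%, 0.153%, 0.0165%, 0.0618% and 0.0265% at the injury, and 0.143%, 0.167%, 0.148%, 0.195% and 0.161% in distal libraries. On this scale too injury replicate 3 lay inside the distal range while the other 5 injury libraries lay below it. The gene held 5908 to 45255 fragments at the injury and 52577 to 61656 in distal libraries, on a length of 2778 bases. The lowest share of fragments was 0.0348% (injury replicate 4, 95% exact binomial interval 0.0339% to 0.0357%) and the highest 0.409% (distal replicate 4, 0.406% to 0.413%). Genes close to it by mean FPKM (762 FPKM, rank 108) were DDX5, COX4I1 and hist2h2l above and fkbp1aa and atp5mc1 below, with means of 734 to 775 FPKM and SDs of 267 to 434 FPKM, none of which differed from it beyond the spread.

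Injury replicate 3, the injury library with the most chgb, was also high in most granin and processing genes. It was the highest injury library at 10 of the 13 other granin and processing genes that averaged at least 10 FPKM. At the 17 dense-core vesicle genes of that level it was the highest at 5, as was injury replicate 5. How often it was the highest over all genes was not computed. It also had the fewest genes detected and the highest tph2 of the injury libraries (5396 FPKM). Its 7 myelin and oligodendrocyte markers were all listed at 0. Over the libraries the sum of these markers was 0 to 752 FPKM in injury and 160 to 708 FPKM in distal libraries. Injury replicates 1 to 6 had sums of 35.0, 63.6, 0, 41.7, 60.5 and 752 FPKM. Thus 5 of the 6 lay below every distal library and replicate 6 above all of them. At chgb, by FPKM, all 6 lay below every distal library, with 198 FPKM in replicate 6. Of the 7 markers 6 had a lower mean at the injury, with a median difference of -0.98 against -0.04 over all genes tested. The myelin gene mbpa differed by -4.54 ± 1.04 (SE, limma unadjusted p 0.000171, adjusted p 0.838), the 1 marker at an unadjusted p under 0.05, which 2.03% of all genes tested passed in that direction. Endothelial markers summed to at most 0.0727 FPKM, erythrocyte markers to at most 21.3 FPKM and fibroblast and pericyte markers to at most 3.36 FPKM in any library. No endothelial ID reached the filter for the test, and none of the 2 erythrocyte and 4 fibroblast IDs that did had a limma p under 0.05, adjusted or unadjusted. The part of detection and of these cell types in the level of chgb was not tested.

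The granins besides chgb had small mean differences between the groups relative to their errors. Of 9 listed names, chgb included, 7 matched an ID, SCG5 with both IDs given below. All 7 IDs besides chgb were tested, and 6 had a lower and 1 a higher mean at the injury. None passed (0 at a limma adjusted p under 0.05 and 0 at an unadjusted p under 0.05, where 2.68% of all genes tested did). Their median difference was -0.06, against -0.04 over all genes tested. The most abundant was scg2b, precursor of the secretogranin 2 peptides, with 1630.0, 999, 7699, 2230.4, 2292 and 1270.3 FPKM in the 6 injury libraries and 1426, 5179.8, 1640.2, 2196 and 3627 FPKM in the 5 distal ones. The lowest and the highest value were both injury libraries (difference -0.26 ± 0.40, SE, limma adjusted p 0.868). SCG3, which links granin aggregates to the vesicle membrane, had 590.1 to 3967 FPKM in injury and 719.9 to 2158 FPKM in distal libraries (difference -0.03 ± 0.39, limma adjusted p 0.991). For SCG5, the chaperone of prohormone convertase 2, ENSDARG00000032126 had a mean of 1215 FPKM and ENSDARG00000077045 one of 16.6 FPKM, with differences of -0.05 ± 0.33 and -0.06 ± 0.82. The remaining means were 230.4 FPKM for vgf (0.47 ± 0.57), 193 FPKM for pcsk1nl, an inhibitor of prohormone convertase 1 in mammals (-0.11 ± 0.53), and 19.5 FPKM for chga, which was listed at 0 in 3 libraries (-0.26 ± 1.22).

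Set against these genes within each library, the level of chgb was also lower at the injury, a description that rests on the values for which it was chosen. It made up 6.44%, 9.18%, 6.74%, 2.54%, 7.34% and 5.16% of the summed FPKM of all 8 granin IDs over the injury libraries, and 21.1%, 11.3%, 19.7%, 23.8% and 13.2% over the distal ones, each in the order of their numbers. Here injury replicate 3 was in the middle of its group, and the groups did not overlap. The injury mean was 6.24% ± 2.24 (SD, n = 6), against 17.8% ± 5.35 (SD, n = 5). Taken per gene, chgb as a percent of tph2 was 12.6% ± 4.68 at the injury and 39.4% ± 25.2 in distal libraries, with the highest injury library at 18.5% and the lowest distal library at 18.6%. As a percent of vgf the ranges also stayed apart, at 39.2% to 464% and 490.1% to 1441%. For scg2b, SCG3, SCG5 (ENSDARG00000032126), pcsk1nl, PCSK1, CPE and PAM, 1 injury library in each case reached into the distal range, and the distal mean was 3.09 to 4.49 times the injury mean.

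The genes that process peptides were present in both groups. All 13 IDs of the list were tested, 7 with a higher and 6 with a lower mean at the injury, and none passed (0 at an adjusted and 0 at an unadjusted limma p under 0.05), with a median difference of 0.06. Those that averaged at least 10 FPKM were CPE, carboxypeptidase E (467 FPKM, difference 0.26 ± 0.52), PAM, the amidating enzyme (462 FPKM, 0.24 ± 0.49), PCSK1, prohormone convertase 1 (240.4 FPKM, -0.30 ± 0.62), QPCT, which forms N-terminal pyroglutamate (42.4 FPKM, -0.63 ± 1.14), one FURIN ID (ENSDARG00000070971, 31.9 FPKM, 0.99 ± 1.02) and PCSK2, prohormone convertase 2 (10.5 FPKM, -1.82 ± 0.96). Errors are SE (n = 6 and 5) and all limma adjusted p were 0.838 or above. PCSK2 had 1.24, 5.96, 0, 4.74, 2.61 and 7.11 FPKM in injury and 2.38, 22.3, 3.28, 29.1 and 37.4 FPKM in distal libraries. Distal replicates 1 and 3 lay within the injury range and the other 3 above it.

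**Figure D3:**
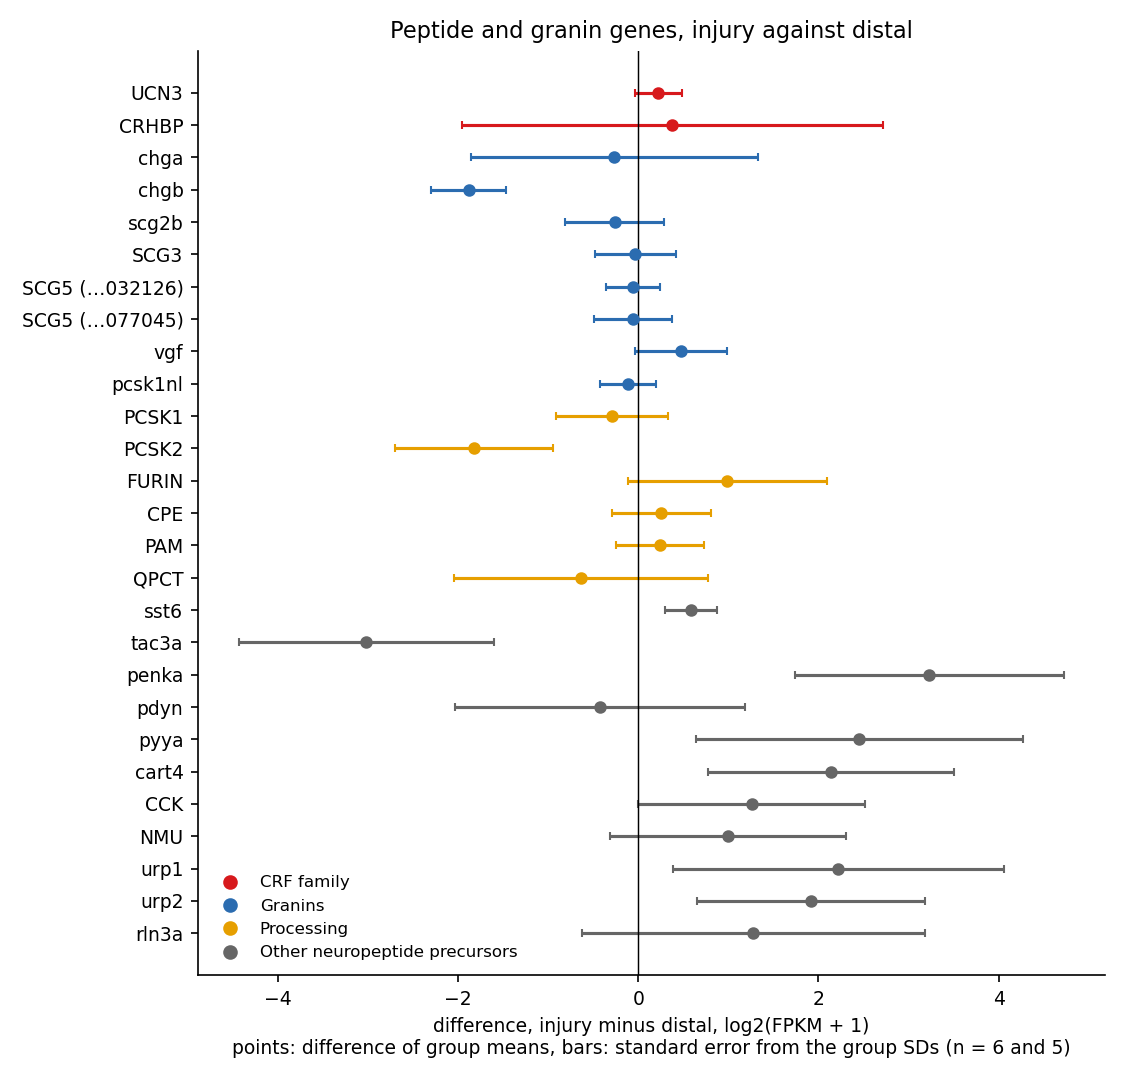
Difference between injury and distal means of log2(FPKM + 1) (horizontal axis) for the genes of 4 lists that averaged at least 10 FPKM or had an unadjusted limma p under 0.05, coloured by list, with bars of 1 SE from the group SDs (n = 6 and 5). The point of chgb is at -1.88 while those of the other granins lie between -0.26 and 0.47, and urocortin 3 is at 0.22.

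Genes of dense-core vesicle formation, transport and release were also found in both groups. Of 26 IDs 24 were tested, 11 with a higher and 13 with a lower mean at the injury (median difference -0.09), and 0 passed at an adjusted or unadjusted limma p under 0.05. The highest were the SNARE genes vamp2 (918 FPKM, -0.58 ± 0.37) and SNAP25 (ENSDARG00000020609, 816 FPKM, 0.14 ± 0.39). They were followed by PTPRN2 and ptprna, membrane phosphatase-like proteins of the vesicle (339 FPKM, -0.14 ± 0.49, and 323 FPKM, 0.65 ± 0.53), and RAB2A, a small GTPase of vesicle maturation (264 FPKM, -0.32 ± 0.53). Those that prime dense-core vesicles for release, cadpsa and cadpsb, had means of 20.9 and 11.7 FPKM and differences of -0.28 ± 0.79 and 0.08 ± 0.86 (SE). The limma adjusted p of these 7 genes lay at 0.838 or above.

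Among the peptide precursors matched to an ID, urocortin 3 had the highest level in every library. Of 53 names listed as other precursors 46 matched, to 45 IDs, and the rest could not be compared. The FPKM of urocortin 3 was 5.35 to 188 times the sum of the 45 IDs in the same library. Of these 45, 28 were tested and 13 were listed at 0 in all libraries. In the tested ones 22 had a higher and 6 a lower mean at the injury, with a median difference of 0.76 against -0.04 over all genes. Some of the higher ones, such as penka, pnocb, CCK, npb and urp2, were listed at 0 in every distal library. They met the filter through injury libraries alone, which fixed their direction. PYY and qrfp met it through distal libraries alone. Injury replicates 5 and 6 each had 20 of the 45 IDs above 0, against 2 to 12 in the other libraries. No group-wide shift is read from the split or the median. At an unadjusted limma p under 0.05 1 was higher (background 0.658%) and 1 lower (background 2.03%), and none had an adjusted p under 0.05 (background 0%). The background split of 159 higher and 490 lower genes was 343 and 336 without injury replicate 2, and 386 and 353 without injury replicate 3. The most regular was sst6, a somatostatin precursor, above 0 in all libraries at 109 to 309 FPKM in injury and 93.5 to 163 FPKM in distal libraries (difference 0.59 ± 0.56, SE, limma adjusted p 0.838).

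The others were less regular, each listed at 0 in at least 1 library. The tachykinin precursor tac3a, the one that was lower, had 35.4, 0, 0, 58.8, 2.58 and 78.5 FPKM in the 6 injury libraries and 363, 19.2, 157, 40.3 and 47.5 FPKM in the 5 distal ones (difference -3.02 ± 1.14, SE, limma adjusted p 0.838). Its groups overlapped. The enkephalin precursor penka, the one that was higher, had 0.0373, 24.5, 0, 0, 132 and 192 FPKM in injury and was listed at 0 in all distal libraries (difference 3.23 ± 1.26, SE, limma adjusted p 0.838). Of these unadjusted calls, when 1 library was left out, that of tac3a was lost without distal replicate 1, and that of penka without injury replicate 5 or 6. The call of penka was also lost with the replicate block and with no filter on low values. Over all alternatives the limma unadjusted p reached at most 0.0515 for tac3a and 0.129 for penka. High single values were found in injury replicate 6 for pyya (2029 FPKM), urp1 (537 FPKM), NMU (205 FPKM), CCK (188 FPKM) and urp2 (141 FPKM). Both urp1 and urp2 mark cerebrospinal fluid-contacting neurons, and the 6 markers of that cell type summed to 240 and 725 FPKM in injury replicates 5 and 6, against at most 8.13 FPKM in each of the other 9 libraries. The precursors rln3a, pdyn and cart4 had means of 38.1, 13.8 and 12.7 FPKM and were listed at 0 in 4, 6 and 6 libraries.

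No relation between urocortin 3 and chgb was detectable with these libraries. Across the 11 libraries Pearson's r was -0.31 (permutation p 0.377) and Spearman's rho -0.39 (permutation p 0.239), with r -0.46 without distal replicates 3 and 1. Within the injury libraries r was -0.43 (exact permutation p 0.401, n = 6) and rho -0.43 (exact permutation p 0.419), and r was -0.58 without injury replicates 5 and 1. The pooled value includes the group difference for which chgb was chosen, and r of the deviations from the group means was -0.11 (permutation p 0.66). Among the distal libraries, too few for a correlation, the one with the least urocortin 3 (replicate 3, 9470.1 FPKM) had 1182 FPKM of chgb, within the range of the others. The number of urocortin 3 FPKM per chgb FPKM ran from 20.05 to 181 at the injury and from 8.01 to 22.7 in distal libraries. The ranges overlapped only through injury replicate 3, at 20.05.

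**Figure D4:**
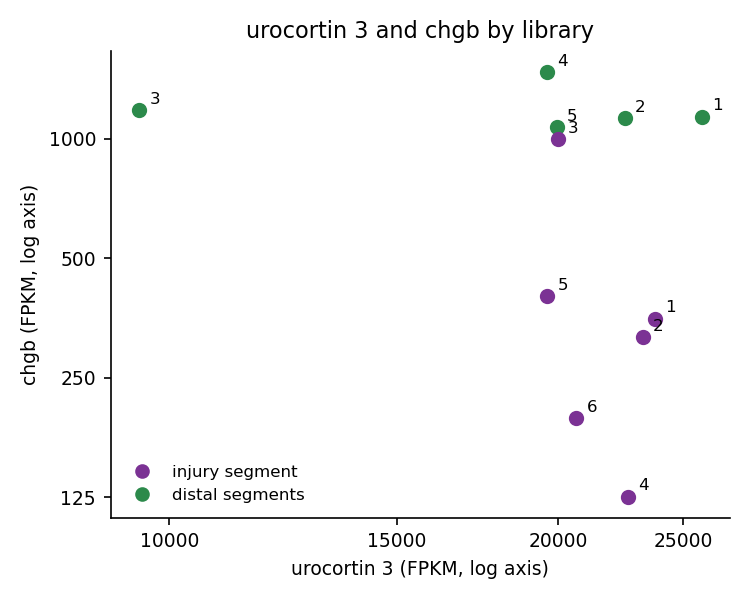
FPKM of chgb (vertical log axis) against FPKM of urocortin 3 (horizontal log axis), with 1 point per library, purple for injury and green for distal, and the replicate number beside each point. The injury libraries spread from 125.3 to 997 FPKM along the chgb axis within 19601.9 to 23760.3 FPKM of urocortin 3, and distal replicate 3 stands to the left at 9470.1 FPKM of urocortin 3.

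No relation of either gene with tph2 or with the number of genes detected passed the test. With tph2, urocortin 3 had r 0.47 (permutation p 0.151; rho 0.22, p 0.521; r -0.21 without distal replicate 3 and injury replicate 6) and chgb r 0.49 (permutation p 0.129; rho 0.25, p 0.451; r 0.71 without the same libraries). Within the injury group these were -0.16 and 0.78 (exact permutation p 0.746 and 0.0694, n = 6; rho -0.14 and 0.77, exact p 0.803 and 0.103), and 0.05 and 0.36 without injury replicates 3 and 6. With the number of genes at 1 FPKM or more, r was -0.13 for urocortin 3 and -0.17 for chgb (permutation p 0.745 and 0.614; rho -0.25 and -0.09, permutation p 0.452 and 0.796), and -0.05 and -0.27 without injury replicates 3 and 2. The injury libraries alone gave -0.18 and -0.33 (exact permutation p 0.762 and 0.547, n = 6; rho -0.26 and -0.14, exact p 0.658 and 0.803). Without injury replicates 3 and 2 the last value of r turned to 0.81 for chgb and was -0.55 for urocortin 3. In all 10 relations were computed, and the lowest Benjamini-Hochberg values were 0.503 for r and 0.803 for rho.

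The genes most like each of the 2 in their pattern over the 11 libraries were taken from 2087 Ensembl IDs above 0 in all of them, as a description. For urocortin 3 they were NDFIP1 (r 0.91), YWHAE (0.89), ptp4a2b (0.89), MAP1LC3B (0.89) and RIMOC1 (0.88). Over the 6 injury libraries alone their r ran from -0.000742 (ptp4a2b) to 0.77 (MAP1LC3B). For chgb they were NETO2 (0.86), KLHL12 (0.82), TOB1 (0.82), tox2 (0.82) and zfhx3a (0.81), with 0.75 to 0.97 over the injury libraries. The group differences of these 5 were between -1.58 and -0.29, with limma adjusted p of 0.838 to 0.941. In the order of likeness chgb was at position 1893 of 2087 for urocortin 3.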

How the data were processed

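RNA of sorted cells was amplified (SMART-Seq v4) and sequenced paired-end. The deposited values are FPKM, which the authors calculated from gene length and mapped reads; the submitters' processing notes name HISAT2 2.0.5, HTSeq 0.9.1 and danRer11, and no gene filter or scaling between libraries is stated. The authors tested with DESeq and an unadjusted p. Symbols came from a reference of gene names (29201 of 39714 IDs), used exactly, in upper case, or without the paralog letter. Where 2 IDs share such a symbol, which paralog each is remains unsettled.

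Because FPKM is whole fragments over length and library total, totals were found as the whole numbers for which low values (0.012 to 0.03 FPKM) give whole lengths, and a gene's length as the smallest that gives whole fragments in all libraries. On simulated data all 11 totals and 99.9% of fragments were recovered. An FPKM of 0 is 0 fragments.

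The 24178 IDs whose mean reached 0.1 FPKM went into limma (version 3.58.1, under R version 4.3.3, trend, two-sided, Benjamini-Hochberg) on log2(FPKM + 1), checked on simulated data; this scale understates changes of low genes. Of these, 0 had an adjusted p under 0.05 (0%) and 649 (2.68%) an unadjusted one. Relations used 100000 two-sided permutations, or all pairings for 6 libraries. Nothing says that libraries are separate cultures or fish, so errors measure the spread between these libraries. List genes are named at a mean of at least 10 FPKM or an unadjusted p under 0.05. Members and lists were chosen with earlier results of these data known. Alternatives were another pseudocount, scalings, filters, prior, a replicate block, limma-voom on the recovered fragments with library totals and leaving out libraries. Python 3.11.15 with numpy 2.4.6, pandas 2.3.3, scipy 1.17.1, numba 0.67.0 and matplotlib 3.10.9 was used.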

Additional observations from a re-analysis of the deposited data

Results flagged for a closer look

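Values that lay far from the rest of their group by a Dixon criterion (95%) were found in 17 of 112 groups checked. Chance gives about 1 in 20 only where values are normally spread, so the 17 cannot be set against that rate. In the flagged groups of cart4, CCK and NMU every other library was at 0, where any value above 0 is flagged. Of the 2 genes described, urocortin 3 was flagged in distal replicate 3 (9470.1 FPKM). Of the serotonergic genes this applied to FEV in distal replicate 3 (1103 FPKM) and injury replicate 3 (1450.4 FPKM), SLC18A2 in distal replicate 3 (102 FPKM), GATA2 in injury replicate 3 (603 FPKM) and GATA3 in injury replicate 5 (553 FPKM). Among granin and vesicle genes it applied to vgf in injury replicate 2 (68.2 FPKM), RAB2A in injury replicate 2 (71.7 FPKM), RAB3A (ENSDARG00000043835) in injury replicate 4 (11.7 FPKM), hid1a in distal replicate 4 (0 FPKM) and SNAP25 (ENSDARG00000058117) in distal replicate 4 (18.0 FPKM). Among precursors it applied in injury replicate 6 to pyya (2029 FPKM), CCK (188 FPKM) and NMU (205 FPKM), in distal replicate 3 to cart4 (7.4003 FPKM), and in distal replicate 5 to urp1 (4.03 FPKM) and NMU (1.69 FPKM).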

How the results depend on the processing

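The log2 difference of chgb lay between -2.21 and -1.61 without any 1 library, and that of urocortin 3 between -0.02 (without distal replicate 3) and 0.35 (without distal replicate 1); under the other pseudocount, the scalings and shares of fragments, each moved by less than the SD of libraries. Whether replicates of the same number came from the same fish is not stated, and the main fit used no pairing. The correlation of deviations of same-numbered libraries was 0.05, 0.01, -0.05, -0.00212 and 0.13. Injury replicates 1 and 5 alone correlated best with their own number. Noisy libraries of the same fish could also correlate this weakly, so these values do not settle the pairing. With the replicate block the differences were -1.74 and 0.24, and limma called 0 genes adjusted and 696 unadjusted. The relation of the 2 genes turned to r 0.11 (permutation p 0.739) when ranks within each library replaced FPKM, and ran from -0.43 to -0.15 without any 1 library. Of all genes tested, 2 were called with a prior without a trend and 3 with voom, against 0, and 1190 against 649 at an unadjusted p under 0.05 with voom (540 higher and 650 lower, against 159 and 490); without any 1 library these counts were 0 to 0 and 541 to 739, and the split was 343 higher and 336 lower without injury replicate 2 and 386 and 353 without injury replicate 3. Of the list genes, 0 were called under every alternative run. At an unadjusted p under 0.05 they numbered 2, against 1 with no filter and 5 with voom, and 1 to 5 without any 1 library: tac3a failed without distal replicate 1, and penka without injury replicate 5 or 6. With no filter tac3a was the 1 left, and with the replicate block the 2 were tac3a and PCSK2 (unadjusted limma p 0.0116) in place of penka. The cause of these changes was not tested. Genes listed at 0 in the libraries with few genes detected limit every statement on absence.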
